A study of Homo sapiens with 9 samples.

Results

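The Sprouty and SPRED genes encode intracellular inhibitors of receptor tyrosine kinase signalling. SPRY1, SPRY2, SPRY4, SPRED1 and SPRED2 were followed by RNA sequencing (RNA-Seq) in LNCaP cells, a human androgen-responsive prostate carcinoma line derived from a metastasis, exposed to recombinant NRG1, a growth factor that binds the receptor HER3. The 5 genes were chosen by name, with earlier results of these data known, among the 37351 genes of the deposited count table. All 5 had enough counts to be tested. After starvation in medium lacking serum and calcium, the cells received NRG1 at 15 ng/mL, and RNA was taken at 0, 12 and 24 h, with 3 libraries labelled as biological replicates at each time. The 0 h group was the starved cells at the start of the course. Cells left untreated for 12 or 24 h were not analysed here, so the effect of NRG1 and that of further time in the medium cannot be told apart. All libraries came from 1 cell line, so p-values measure the spread between cultures of that line. Per the study's methods cells were plated in triplicate. Whether the 3 libraries of a time came from separate platings is not given in the sources used here.

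Ligand binding to HER3 recruits HER2 and feeds the RAS, RAF, MEK and ERK kinase cascade. ERK activity in turn drives transcription of its own inhibitors, among them Sprouty proteins, which makes these genes a transcript readout of negative feedback. Sprouty proteins are phosphorylated on tyrosine after stimulation and engage adaptors and ubiquitin ligases such as GRB2 and CBL. SPRED proteins carry an EVH1 domain and bring neurofibromin, the RAS GTPase-activating protein encoded by NF1, to the plasma membrane, where it turns RAS off. Reduced levels of Sprouty transcripts have been described in prostate tumours.

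The members lie on different chromosomes. Sequences before their protein-coding transcript starts are shown because the genes moved in the same direction but by very unequal amounts. On GRCh38, SPRY4 (ENSG00000187678.10) lies at chr5:142310427-142326455 on the minus strand, SPRED1 (ENSG00000166068.13) at chr15:38252836-38357249 on the plus strand and SPRED2 (ENSG00000198369.10) at chr2:65310851-65432637 on the minus strand. SPRY1 (ENSG00000164056.11) lies at chr4:123396795-123403760 on the plus strand and SPRY2 (ENSG00000136158.12) at chr13:80335976-80341126 on the minus strand. The 250 bases before the outermost protein-coding transcript start of GENCODE v44 are printed 5′ to 3′ on the strand of the gene. The SPRY4 window lies inside the gene span given above, whereas the windows of the other members lie directly before theirs. Capitals mark each GGAA, the core of sites bound by ETS transcription factors, read on either strand (TTCC on the printed strand). The windows are those of SPRY4 (chr5:142325022-142325271, minus), SPRED1 (chr15:38252586-38252835, plus), SPRED2 (chr2:65432638-65432887, minus) and SPRY1 (chr4:123396545-123396794, plus), in the order of their change:
SPRY4: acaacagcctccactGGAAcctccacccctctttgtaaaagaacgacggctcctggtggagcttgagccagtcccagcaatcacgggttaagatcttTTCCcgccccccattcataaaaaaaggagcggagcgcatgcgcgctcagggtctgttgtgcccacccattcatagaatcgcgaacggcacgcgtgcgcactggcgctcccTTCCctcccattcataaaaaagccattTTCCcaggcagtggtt
SPRED1: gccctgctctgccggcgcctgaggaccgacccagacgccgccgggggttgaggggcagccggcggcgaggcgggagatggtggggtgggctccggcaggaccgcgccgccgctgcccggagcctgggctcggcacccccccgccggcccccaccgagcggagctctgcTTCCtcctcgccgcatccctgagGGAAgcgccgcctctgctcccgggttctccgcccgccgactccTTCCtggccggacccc
SPRED2: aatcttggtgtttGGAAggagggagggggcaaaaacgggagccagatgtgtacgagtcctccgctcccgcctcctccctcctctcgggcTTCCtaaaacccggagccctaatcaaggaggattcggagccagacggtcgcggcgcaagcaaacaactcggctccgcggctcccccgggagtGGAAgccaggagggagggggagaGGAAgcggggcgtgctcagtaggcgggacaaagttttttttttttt
SPRY1: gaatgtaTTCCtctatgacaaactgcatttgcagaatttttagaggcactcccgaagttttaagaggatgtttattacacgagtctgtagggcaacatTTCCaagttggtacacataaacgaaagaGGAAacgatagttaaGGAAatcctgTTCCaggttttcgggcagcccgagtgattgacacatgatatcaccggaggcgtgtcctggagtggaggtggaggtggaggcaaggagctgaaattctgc

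The SPRY4 window held 4 ETS cores, that of SPRED1 3, that of SPRED2 4, that of SPRY1 5 and that of SPRY2, which is not printed, 3. Among 19625 windows of the same length before protein-coding genes, 92.1% held at least 1 core and the median was 3, so the core did not separate these genes from others. None of the 5 windows held, on either strand, the longer ETS site CCGGAAG (in 9.61% of all windows), the AP-1 site TGANTCA (5.31%), the cyclic AMP response element TGACGTCA (2.02%) or a CArG box (1.12%). GC content separated the members, at 45.6% for SPRY1, 55.6% for SPRY4, 60.4% for SPRED2, 70.4% for SPRY2 and 78.4% for SPRED1, beside a median of 60.4% over all windows. The SPRY4 window held the 10-base word CCCATTCATA 3 times, a repeat noticed after the sequence was read. It was picked as a 10-base word with the most copies in this window. The word occurred in 7 of all windows (0.0357%), and SPRY4 was the 1 gene with at least 3 copies. Since SPRY4 supplied the word, these counts are a description. In the deposited table SPRY4-AS1, a long non-coding RNA on the opposite strand, starts at chr5:142325293, just upstream of the SPRY4 window.

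All 5 genes had higher transcript levels at 12 and at 24 h than at 0 h, and the size of the difference ran from about 1.23-fold to about 79.6-fold. SPRY4, nearly without reads at 0 h, rose most, SPRED1 and SPRED2 rose about 2-fold, and SPRY2 and SPRY1 differed by less than 1.5-fold. Both thresholds, 0.05 for the adjusted p-value from edgeR and 1.5 for the fold, were passed by 3 of 5 members at 12 h and by SPRY4, SPRED1 and SPRED2 again at 24 h, all of them higher. Over all 19250 genes tested, 0.992% passed as higher at 12 h and 1.53% at 24 h. On the adjusted p-value alone 5 of 5 members were higher at each time, where 10.6% and 11.6% of tested genes were, and 5 of 5 differed among the 3 times in the edgeR F test, as 25.1% of tested genes did. In all 5, no library at 12 or 24 h overlapped the 0 h libraries, a pattern that 17.5% of tested genes showed upwards at 12 h and 17.3% at 24 h. The members were chosen with earlier results of these data known, so these counts are a description. Levels are given as CPM, read counts scaled to library size, which compare 1 gene between libraries. In bulk RNA, more transcript per cell and more cells carrying it cannot be told apart.

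**Figure D1:**
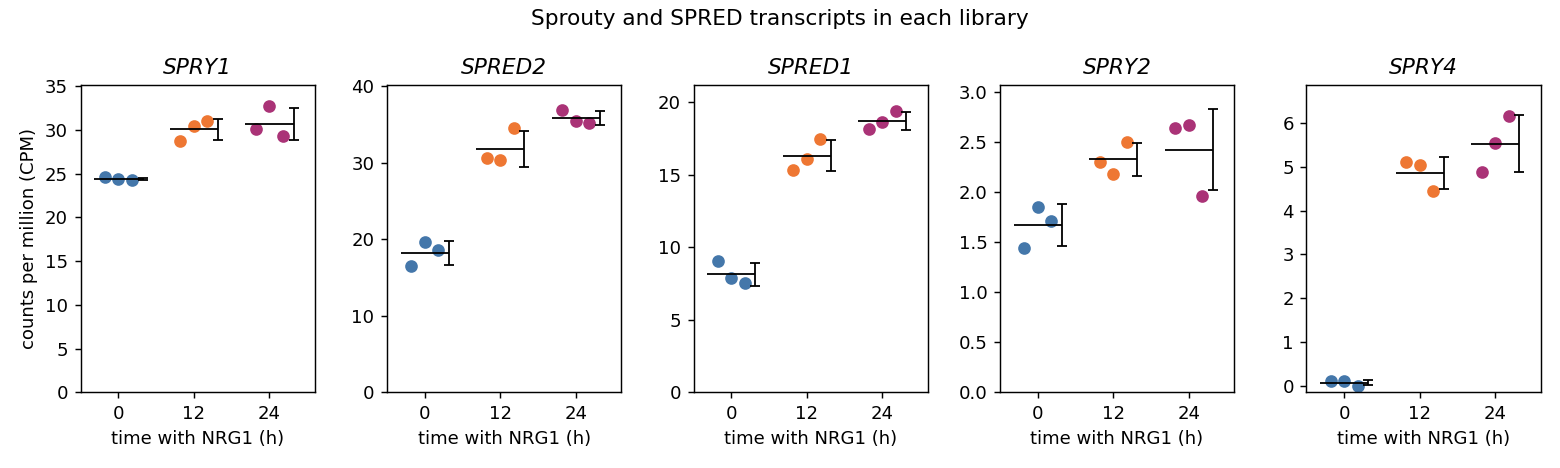
CPM of each gene in each of the 9 libraries against time with NRG1 in hours, in 1 panel per gene with its own linear axis. Points are libraries in replicate order, horizontal lines are group means and error bars are SD (n = 3). Every 12 h and 24 h library lies above every 0 h library in all 5 panels, and SPRY4 starts at 0 to 0.103 CPM.

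SPRY4 restrains growth factor signalling from RAS to ERK. It had 6, 6 and 0 reads in the 0 h libraries, 276, 266 and 215 at 12 h, and 229, 302 and 321 at 24 h. Its levels were 0.0967, 0.103 and 0 CPM at 0 h, 5.11, 5.03 and 4.44 CPM at 12 h, and 4.88, 5.55 and 6.16 CPM at 24 h. All 6 libraries with NRG1 were high and all 3 at 0 h were at or near 0, where the library with no read allows a level of up to 0.0514 CPM (3 counts). The log2 fold change was 6.13 at 12 h (SE 0.27, edgeR adjusted p = 8.79e-19) and 6.32 at 24 h (SE 0.27, adjusted p = 1.14e-19). By absolute log2 fold change, SPRY4 ranked 2 of 19250 genes at 12 h and 3 at 24 h. The count filter kept SPRY4 only through its 12 and 24 h libraries, which favours a high rank, so the rank is a description. Because only 12 reads stood behind the 0 h group, the ratio was also taken from the pooled counts. It was 72.5 at 12 h (95% interval of 41.2 to 141) and 82.6 at 24 h (47.0 to 160), intervals that cover counting error only. With each library left out in turn the log2 fold change was 5.57 to 6.55 at 12 h and 5.76 to 6.73 at 24 h, and SPRY4 passed in every such fit.

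SPRED1, which binds neurofibromin through its EVH1 domain, was measured at 9.04, 7.88 and 7.52 CPM at 0 h, 15.4, 16.1 and 17.5 CPM at 12 h, and 18.2, 18.6 and 19.4 CPM at 24 h. The 3 groups did not overlap, and the highest libraries were those at 24 h. The log2 fold change was 1.00 (SE 0.074) at 12 h and 1.20 (SE 0.074) at 24 h, or 2.00-fold and 2.30-fold, with edgeR adjusted p-values of 8.20e-13 and 2.47e-15. SPRED2, its closest paralog with the same domains, stood at 16.5, 19.6 and 18.5 CPM at 0 h, 30.5, 30.3 and 34.5 CPM at 12 h, and 36.8, 35.5 and 35.1 CPM at 24 h. Here too the 3 groups were separate. The log2 fold change of SPRED2 was 0.80 (SE 0.059) at 12 h and 0.98 (SE 0.058) at 24 h, or 1.75-fold and 1.97-fold, with edgeR adjusted p-values of 8.47e-13 and 2.39e-15. Both SPRED genes were thus already expressed before NRG1 and rose by similar factors.

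SPRY1, the Sprouty gene with the highest level in these cells, showed 24.6, 24.3 and 24.3 CPM at 0 h, 28.7, 30.5 and 31.0 CPM at 12 h, and 30.1, 32.7 and 29.3 CPM at 24 h. The 0 h libraries were almost alike and all lower than the others, while 12 and 24 h overlapped. Its log2 fold change of 0.30 (SE 0.051, edgeR adjusted p = 3.72e-05) at 12 h and 0.33 (SE 0.051, adjusted p = 5.96e-06) at 24 h corresponded to 1.23-fold and 1.26-fold. SPRY2, which binds CBL and GRB2, was the least abundant of the members with steady expression, with 89 to 145 reads per library. It measured 1.43, 1.85 and 1.71 CPM at 0 h, 2.30, 2.18 and 2.50 CPM at 12 h, and 2.64, 2.67 and 1.96 CPM at 24 h. The lowest 24 h library lay close to the highest 0 h library. The log2 fold change of SPRY2 was 0.48 (SE 0.17, edgeR adjusted p = 0.0464) at 12 h and 0.54 (SE 0.17, adjusted p = 0.0207) at 24 h, or 1.40-fold and 1.46-fold. This difference was fragile: the adjusted p-value exceeded 0.05 in 7 of 9 fits with 1 library left out at 12 h (range 0.0377 to 0.184) and in 3 of 9 at 24 h (0.00695 to 0.107). At 24 h the fits that lost it were those without the first 0 h, the first 24 h or the second 24 h replicate, whereas without the second 0 h or the third 24 h replicate the log2 fold change reached 0.62 and 0.67 and passed both thresholds.

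**Figure D2:**
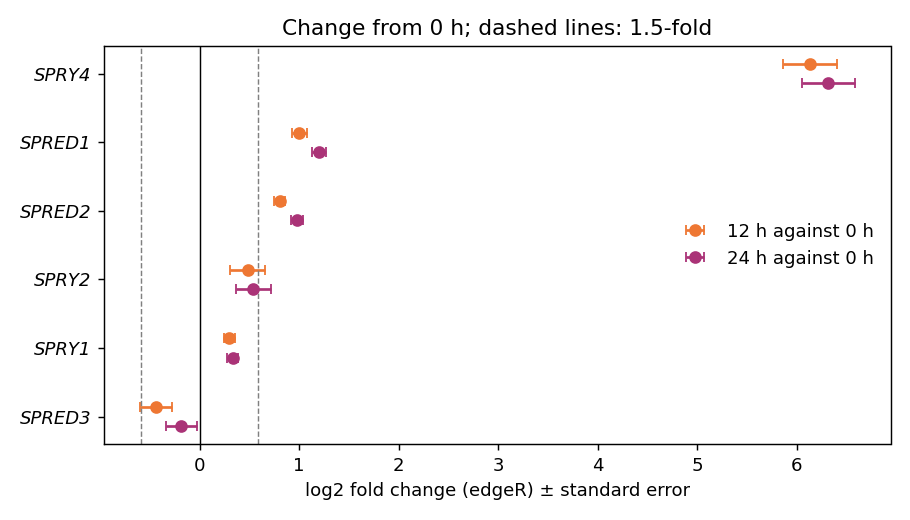
Log2 fold change from 0 h fitted by edgeR (x axis) for the 5 genes and for SPRED3, at 12 and 24 h, with bars for the standard error and dashed lines at 1.5-fold. SPRY4 lies above 6, SPRED1 and SPRED2 between 0.80 and 1.20, and SPRY1 and SPRY2 above 0 but inside the dashed lines.

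The direct comparison of 24 with 12 h asked whether the levels still moved after the first 12 h. None of the 5 members passed both thresholds, beside 0.452% of tested genes in either direction, or the adjusted p-value alone, beside 6.08%. DESeq2 passed none. At an unadjusted p-value under 0.05 there were 2, SPRED1 and SPRED2. The share of all tested genes under it was not taken, so this count is a description. SPRED1 was higher at 24 h by 0.20 on the log2 scale (SE 0.069, edgeR adjusted p = 0.0836) and SPRED2 by 0.17 (SE 0.056, adjusted p = 0.0628). Both had groups that did not overlap, as 12.1% of tested genes did upwards. The adjusted p-value of SPRED2 was at most 0.05 without the first 0 h, the second 0 h or the third 12 h replicate (the lowest was 0.0198), and that of SPRED1 was 0.0475 without the first 0 h replicate. It was also at most 0.05 for SPRED2 in 3 of 8 other settings (libraries not rescaled, no filter on low counts, and only the 6 libraries compared, the lowest being 0.0233) and for SPRED1 with only the 6 libraries (0.0396), so these late differences lay near the threshold. For SPRY4 the difference was 0.19 (SE 0.14, adjusted p = 0.518), for SPRY2 0.060 (SE 0.17, adjusted p = 0.904) and for SPRY1 0.031 (SE 0.051, adjusted p = 0.82). The standard error of SPRY2 was nearly as large as the late difference of SPRED1, so a late difference of that size was not detectable for SPRY2 at its depth.

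To compare levels between genes, CPM were divided by the length of each gene's exons in kilobases. At 0 h the order per length was SPRY1 (6.16 ± 0.0340 CPM per kilobase; SD, n = 3 here and below), SPRED2 (3.31 ± 0.281), SPRED1 (1.05 ± 0.103), SPRY2 (0.518 ± 0.0651) and SPRY4 (0.0102 ± 0.00883), and no neighbours in this order overlapped. At 12 h SPRY1 stood at 7.59 ± 0.301, SPRED2 at 5.78 ± 0.430 and SPRED1 at 2.11 ± 0.141 CPM per kilobase. SPRY4 had by then reached SPRY2, at 0.742 ± 0.0561 against 0.723 ± 0.0507 CPM per kilobase, and their libraries overlapped. At 24 h the levels per length were 7.75 ± 0.457 for SPRY1, 6.51 ± 0.166 for SPRED2, 2.42 ± 0.0792 for SPRED1, 0.844 ± 0.0978 for SPRY4 and 0.754 ± 0.125 for SPRY2, again with overlap of the last pair alone. Among tested genes with a known length, SPRY4 stood at percentile 0.167 of the level per length at 0 h, 33.4 at 12 h and 34.9 at 24 h. SPRY1 stayed between 68.9 and 73.2. The count filter removed genes low in every library and kept SPRY4 only through its 12 and 24 h libraries. Its place near the bottom at 0 h thus follows from the filter. By level per length, the member with the largest fold change was still among the least abundant members at 24 h.

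The summed level of the 5 genes was 11.0 ± 0.240 CPM per kilobase at 0 h, 16.9 ± 0.790 at 12 h and 18.3 ± 0.487 at 24 h. SPRY1 made up 55.8% ± 1.45 of that sum at 0 h and 42.4% ± 1.39 at 24 h. SPRED2 went from 29.9% ± 1.95 to 35.6% ± 1.24 and SPRED1 from 9.53% ± 1.09 to 13.2% ± 0.700. The share of SPRY4 was 0.0920% ± 0.0797 at 0 h, 4.39% ± 0.523 at 12 h and 4.62% ± 0.602 at 24 h. SPRY2 kept a share of 4.68% ± 0.497 at 0 h and 4.12% ± 0.606 at 24 h, a difference below the SD at 24 h. SPRY1 thus remained the most abundant transcript of the 5 per length at every time, and most of the added level came from genes other than SPRY4.

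**Figure D3:**
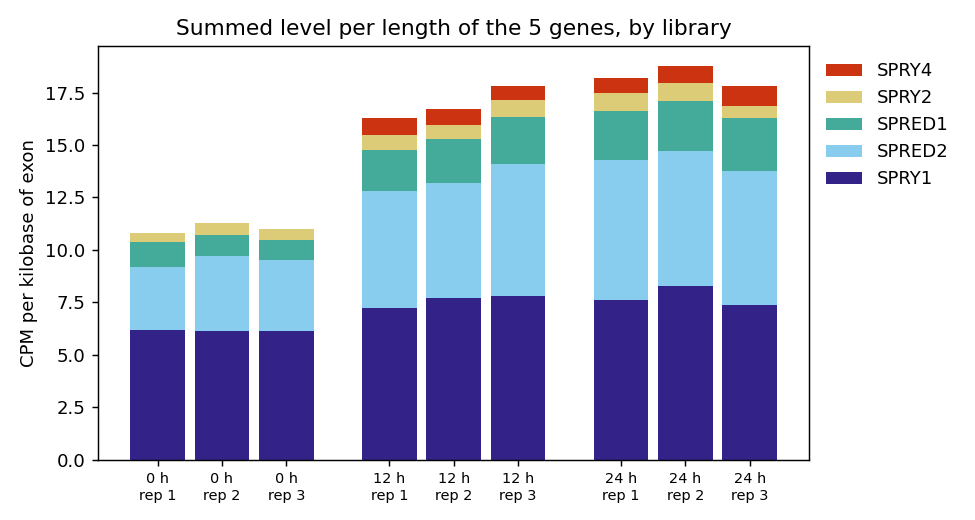
Summed level per length of the 5 genes in each library, in CPM per kilobase of exon, with 1 stacked segment per gene. The bars reach 11.0 on average at 0 h and 18.3 at 24 h, the SPRY1 segment is the largest in every library, and the SPRY4 segment is visible only at 12 and 24 h.

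Ratios of paralogs within a library do not depend on how libraries were scaled. The log2 ratio of SPRY4 to SPRY2 per length went from -6.19 ± 2.16 at 0 h (0.5 count added to each) to 0.033 ± 0.205 at 12 h and 0.167 ± 0.402 at 24 h. The difference was 6.22 at 12 h and 6.36 at 24 h (exact two-sided permutation p = 0.1 each, the smallest that 3 against 3 libraries allow, and 0.2 adjusted over 8 comparisons). Without the third 0 h replicate, which had no SPRY4 read, the differences were 4.98 and 5.11. The ratio of SPRY4 to SPRY1 changed by 6.41 and 6.56 (exact permutation p = 0.1 and adjusted p = 0.2 for each), and by 5.19 and 5.34 without that replicate. The ratio of SPRED1 to SPRED2 was -1.65 ± 0.253 at 0 h and differed by 0.199 at 12 h and 0.226 at 24 h (exact permutation p = 0.4 and 0.3, adjusted 0.4 and 0.343), a shift smaller than the SD at 0 h. Likewise the ratio of SPRY1 to SPRY2, 3.57 ± 0.193 at 0 h, differed by -0.186 and -0.205 (exact permutation p = 0.2 and 0.3, adjusted 0.32 and 0.343). Measured against the SD at 0 h, the ratios that held SPRY4 thus moved by more than 1 SD, and those of the SPRED pair and of SPRY1 to SPRY2 by about 1 SD or less. At the later times the SDs of SPRED1 to SPRED2 were smaller, 0.0428 at 12 h and 0.0813 at 24 h, and the shifts of this pair exceeded them. For SPRY1 to SPRY2 the SD was 0.0975 at 12 h and 0.202 at 24 h.

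Of the other 2 genes of the families, SPRY3 had 34, 19 and 25 reads summed over the libraries at 0, 12 and 24 h and was too low to test. SPRED3, which lacks the functional KIT-binding domain of its paralogs, was measured at 2.88 ± 0.537 CPM at 0 h, 2.12 ± 0.203 at 12 h and 2.54 ± 0.280 at 24 h. Its log2 fold change was -0.44 (SE 0.16, edgeR adjusted p = 0.0511) at 12 h and -0.18 (SE 0.16, adjusted p = 0.478) at 24 h. Without the first 0 h replicate the 12 h value was -0.28 with an adjusted p-value of 0.329, and without the second 0 h replicate the adjusted p-value was 0.0218. It was 0.0439 to 0.0494 without the second 24 h or the third 24 h replicate, with no scaling factor, with at least 10 counts in every library, with only the 6 libraries and with the replicate block, so the 12 h difference lay at the threshold. The mean level of SPRED3 was below that of 0 h at both times, but its 24 h libraries overlapped those of 0 h. Without the first 0 h replicate the 24 h value was -0.022 (edgeR adjusted p = 0.956). SPRED3 thus did not rise at either time, unlike SPRED1 and SPRED2, and its direction at 24 h was not settled.

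Reads of overlapping genes could be mixed with those of a member, since the strand setting of the counting was not given in the sources used here. SPRY4-AS1, which overlaps the far 5′ end of SPRY4, had 2, 11 and 28 reads summed over the libraries at 0, 12 and 24 h, or 2.53% of the SPRY4 reads over all libraries. A pair of short RNAs inside SPRY4 had 3 and 6 reads in all. Near SPRED2, the long non-coding RNA AC074391.1, on the other strand and within 5 kb of its start, had no read at 0 h, 14 at 12 h and 18 at 24 h, and AC012370.2, inside SPRED2, had 8 reads or 0.0586% of those of SPRED2. These counts were too low for testing. SPRY1, SPRY2 and SPRED1 had no other gene of the table within 5 kb.

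Transcripts of the proteins through which Sprouty and SPRED act, and of the kinases they restrain, showed smaller differences than SPRY4, SPRED1 and SPRED2. Of 15 binding partners 14 were tested and 0 passed both thresholds at 12 or 24 h (5 and 6 at an unadjusted p-value under 0.05, and 0 with DESeq2). Over all 19250 tested genes, 457 passed at 12 h and 638 at 24 h in either direction. A count of 0 in a list of this size is thus close to the share over all genes. Over all tested genes, the edgeR adjusted p-value alone selected 3605 at 12 h and 4065 at 24 h. Of the partners it selected 1 higher and 1 lower at 12 h, and 4 higher and 1 lower at 24 h. The largest of these was CBLB, a ubiquitin ligase of the CBL family, with log2 fold changes of 0.27 and 0.41 (adjusted p = 7.16e-05 and 3.23e-08). NF1, the partner of the SPRED proteins, had log2 fold changes of -0.078 and 0.050 (adjusted p = 0.658 and 0.785). The median log2 fold change of the partners was -0.0065 at 12 h and 0.066 at 24 h, beside -0.0084 and -0.0068 over all tested genes. Of the 17 core genes of the cascade from adaptors to ERK, all tested, 0 passed at either time (4 and 5 at an unadjusted p-value under 0.05, and 0 with DESeq2), with medians of -0.00080 and 0.0062. The adjusted p-value alone selected SHOC2 (-0.15) and BRAF (-0.13) at 12 h and HRAS (0.12) at 24 h. Each of these named differences was smaller than those of SPRED1 and SPRED2, but CBLB at 24 h (0.41) exceeded SPRY1 (0.33).

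Of 15 other inhibitors of receptor, RAS or ERK signalling, 4 rose at both times and none fell past both thresholds. Over all tested genes 0.992% passed as higher at 12 h and 1.53% at 24 h. The list's median log2 fold change was 0.056 at 12 h and 0.097 at 24 h. All 4 inhibitors that rose were phosphatases of MAP kinases. DUSP6, which acts on ERK in the cytoplasm, had log2 fold changes of 4.25 and 4.67, from 0.471 ± 0.131 CPM at 0 h to 9.01 ± 0.621 and 12.0 ± 0.831 CPM. DUSP5, a nuclear ERK phosphatase, followed with 1.24 and 1.53, DUSP4 with 0.88 and 0.83 and DUSP2 with 0.73 and 0.78 (the largest edgeR adjusted p-value of these 8 was 5.49e-09). DUSP2 did not pass glmTreat against 1.5-fold (adjusted p = 0.996 and 0.211), and neither DUSP2 nor DUSP4 passed a fold threshold of 2. On the adjusted p-value alone 7 of the 15 were higher and 2 lower at 12 h, and 7 higher and 3 lower at 24 h. Of all tested genes 10.6% and 11.6% were higher on this rule. SPRED1 and SPRED2 thus lay in the range of DUSP2, DUSP4 and DUSP5, and SPRY4 above DUSP6. Of 12 genes known to be transcribed on ERK signalling 10 were tested, 6 rose at 12 h and 7 at 24 h, with medians of 1.54 and 1.81. On the adjusted p-value alone 9 were higher at each time and 1 was lower at 24 h, PHLDA1, with log2 fold changes of -0.50 at both times (edgeR adjusted p = 0.0561 and 0.0498) and groups that did not overlap 0 h. Those that rose included the ETS factors ETV4 (6.47 and 7.26) and ETV5 (4.78 and 5.18), the zinc finger factor EGR1 (5.02 and 5.07) and the AP-1 subunits FOS (4.34 and 4.62) and FOSL1 (2.41 and 2.64). ETV4 was the gene that ranked above SPRY4 at 12 h. This list and that of the inhibitors were chosen with earlier results of these data known, so their counts are a description.

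**Figure D4:**
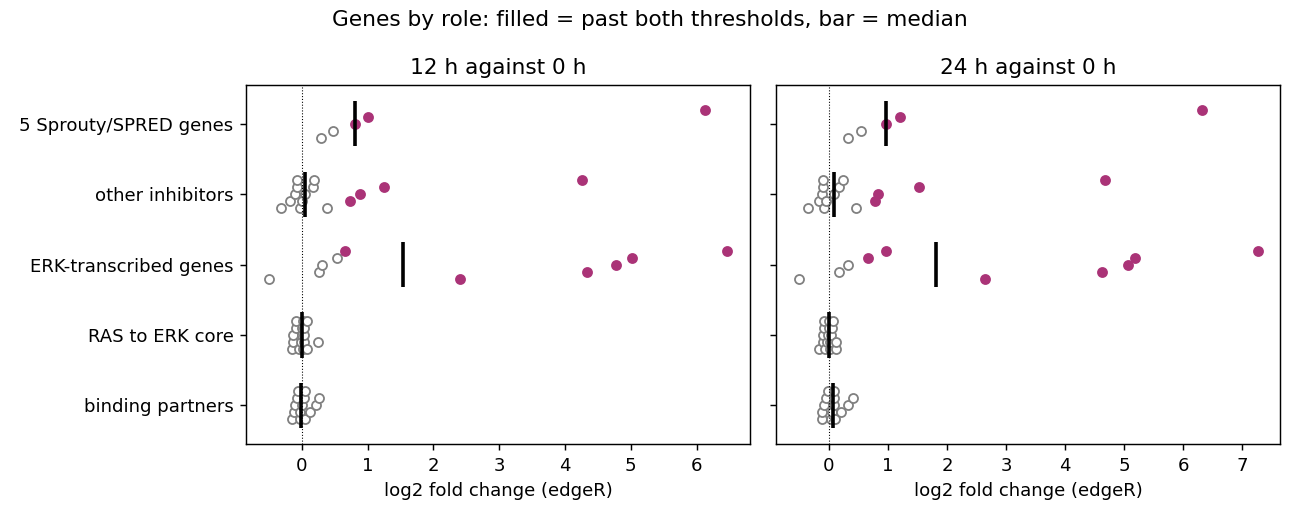
Log2 fold change (edgeR, x axis) at 12 h and 24 h against 0 h of each tested gene in 5 groups by role. Filled points passed both thresholds, open points did not, and vertical bars are medians. The binding partners and the core of the cascade lie close to 0 without a filled point, whereas 3 of 5 Sprouty and SPRED genes, 4 of 15 other inhibitors and 6 or 7 of 10 ERK-transcribed genes are filled.

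The genes whose log2 CPM followed that of a member most closely were taken from 13952 expressed genes by Pearson correlation over the 9 libraries. The libraries form 3 groups and share their scaling, so r describes the shape of the course and not its size. For SPRY4 they were MAFF, a small MAF transcription factor (r = 0.994), ALPK3 (0.994) and NAA20 (0.994), with log2 fold changes at 24 h of 2.20, 0.37 and 0.35 beside 6.32. All 3 were lowest at 0 h, and their log2 fold changes at 12 h (2.19, 0.36 and 0.34) were close to those at 24 h. For SPRED1 they were TFRC, the transferrin receptor (r = 0.995), SMARCA2 (0.994) and FJX1 (0.993), with log2 fold changes at 24 h of 0.26, 0.16 and 2.28. For SPRED2 they were JAG1, a ligand of Notch (r = 0.995), DUSP5 (0.993) and RIN2 (0.988), with 0.57, 1.53 and 0.46. In all 6, as in the SPRED pair, the log2 fold change at 24 h was larger than that at 12 h.

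Counts assigned to genes totalled 58267359 to 60985825 per library for 0 h, 48760003 to 54083444 for 12 h and 47016302 to 54605125 for 24 h. The biological coefficient of variation was 3.77% for SPRY1 and 11.2% for SPRY2, beside a common value of 4.07%. No pair of replicates agreed within sampling noise. All 8 luminal prostate markers were tested, with summed levels between 4173 and 4557 CPM in every library. Basal markers (KRT5, TP63, KRT14) summed to at most 0.325 CPM and leukocyte markers (PTPRC, CD68, CD3E) to at most 0.435 CPM in any library. Fibroblast markers summed to 24.6 to 28.8 CPM, mostly COL1A1, while COL1A2 had a mean of 0 CPM at 0 and 12 h. COL3A1 of the same list rose from 0.566 CPM at 0 h to 1.13 at 12 h and 1.43 at 24 h (log2 fold changes of 0.98 and 1.32, edgeR adjusted p = 0.00900 and 0.00032), and LUM differed by 0.56 on the log2 scale at 24 h (adjusted p = 0.0479). Endothelial markers fell in sum from 12.7 to 13.7 CPM at 0 h to 6.90 to 7.94 CPM at 24 h, through VWF, with PECAM1 at or near 0. The part of these markers in the members' results was not tested.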

How the data were processed

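RNA-Seq of LNCaP cells gave 9 libraries in 3 groups of 3, with groups and replicate numbers taken from the sample titles. Per the study's methods, the authors trimmed read pairs with Cutadapt, aligned them to GRCh38 with STAR and used featureCounts with a GENCODE annotation to count reads. They deposited raw counts, 1 column per library, without normalization or pooling, and 14 empty columns of the table were not used. The methods left out 1 replicate of LNCaP cells at time 0 for its quality without naming the treatment. Since the captions vary the replicate number for the ASPN experiment and not for NRG1, it was probably an ASPN library, and all 3 of the 0 h libraries were used here. Whether counting used strand, and how multi-mapping reads were treated, is not given in the sources used here. Reads carried no molecular identifiers, so depth (47016302 to 60985825 counts) gives counting precision only.

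Genes were filtered with filterByExpr, which kept 19250 of 37351, scaled by the trimmed mean of M values (TMM) and tested with edgeR 4.0.16 in R 4.3.3 (robust quasi-likelihood fit of all 9 libraries, no covariate), with Benjamini-Hochberg adjustment over all tested genes. To pass, a gene needed the authors' thresholds, 0.05 on the adjusted p-value and 1.5 on the fold, and "rose" and "fell" are used for such genes. Levels are CPM on TMM-scaled sizes. Lengths are the union of exons of GENCODE v44, with the longest transcript as an alternative. Ratios of paralogs added 0.5 count and were compared by exact two-sided permutation. Promoter windows of 250 bases were read from GRCh38. Alternatives were DESeq2 1.42.0 (the authors' test), other scaling, filters and thresholds, glmTreat, the replicate number as a block, thinned counts and each library left out in turn. The edgeR procedure was tested on simulated counts.

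The 5 members and the gene lists were chosen with earlier results of these data known. Named beside the members are SPRY3 and SPRED3, at most 5 passing genes per list (largest at 24 h), the 3 genes most correlated with each passing member and genes that overlap a member or lie within 5 kb. CBLB, NF1, SHOC2, BRAF, HRAS, PHLDA1 and the cell type markers were named after their values were seen. Lists were written from general knowledge of the pathway and described by counts and medians. Some single marker genes are not reported here.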

Additional observations from a re-analysis of the deposited data

Results flagged for a closer look

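None of the 5 Sprouty and SPRED genes differed between 24 and 12 h in the direct edgeR test at an adjusted p-value of at most 0.05 in the fit of all 9 libraries, although SPRED2 reached it in 6 alternative fits and SPRED1 in 2. Among the 18 other named genes 5 did, all higher at 24 h, where 6.08% of tested genes differed in either direction. The list genes among them were named for their size at 24 h, so this count is a description. The log2 difference was 0.79 for ETV4 (adjusted p = 2.50e-08), 0.42 for DUSP6 (0.00268), 0.40 for ETV5 (0.00208), 0.28 for DUSP5 (0.0252) and 0.28 for FOS (0.00199), and the 3 libraries of 24 h lay above those of 12 h in each. The groups of 3 libraries were too small to look for single outlying values.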

How the results depend on the processing

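Over 20 alternative settings, the log2 fold changes of the 5 members against 0 h kept their direction, with ranges of 0.27 to 0.34 and 0.28 to 0.37 for SPRY1 at 12 and 24 h, 0.39 to 0.56 and 0.45 to 0.67 for SPRY2, 5.57 to 6.55 and 5.76 to 6.73 for SPRY4, 0.95 to 1.09 and 1.15 to 1.29 for SPRED1, and 0.74 to 0.86 and 0.91 to 1.03 for SPRED2. SPRY4 was tested in 19 of these settings, and SPRED1 and SPRED2 in all 20. Wherever tested, SPRY4, SPRED1 and SPRED2 passed at both times except with a fold threshold of 2. That threshold was missed by SPRED1 at 12 h (1.00) and SPRED2 at 12 and 24 h (0.80 and 0.98), leaving 1 member at 12 h. With no fold threshold SPRY1 (0.30 and 0.33) and SPRY2 (0.48 and 0.54) also passed, giving 5 members at each time, and the lists then held 2, 5 and 1 binding partners at 12 h, at 24 h and between these times, 2 and 1 genes of the core at 12 and 24 h, 9, 10 and 3 other inhibitors, and 5 ERK-transcribed genes between 12 and 24 h. With a replicate left out, SPRY2 at 24 h ranged from 0.45 to 0.67 and passed at 0.62 and 0.67. Between 24 and 12 h, where no member passed, SPRY1 ranged from -0.020 to 0.065 with a replicate left out and SPRY2 from -0.019 to 0.19, so their sign was not fixed (-0.0043 for SPRY2 without the first 24 h replicate). The same held, with a replicate left out, for DUSP2 (-0.012 to 0.089), MAFF (-0.024 to 0.030), ALPK3 (-0.0042 to 0.023) and NAA20 (-0.013 to 0.011), and for MAFF with all genes (-0.0010) or thinned counts (-0.00098), ALPK3 with thinned counts (-1.3e-05) and NAA20 with all genes (-0.0027). A requirement of 10 counts in every library left SPRY4 untested, so 4 members differed at any time, as in some fits with a replicate left out (4 to 5). With the longest transcript as the length, the shares at 0, 12 and 24 h were 61.9%, 51.1% and 48.6% for SPRY1, 26.6%, 31.1% and 32.8% for SPRED2, 7.41%, 9.94% and 10.7% for SPRED1, 4.05% and 3.80% (0 and 12 h) for SPRY2, and the sums were 15.1, 22.6 and 24.2 CPM per kilobase. Over all genes 457 and 638 passed at 12 and 24 h and 87 between them, against 179, 266 and 34 at a fold of 2, 81, 153 and 5 with glmTreat, 3605, 4065 and 1171 with no fold threshold, and 55 between 24 and 12 h without the second 12 h replicate. Same-numbered libraries did not pair (correlations of their deviations of -0.120 to 0.150, with 4 of 9 libraries closest to their own number), and the replicate block passed 3, 3 and 0 members, with SPRY2 at 12 h at an adjusted p of 0.0525 and SPRED3 at 12 h at 0.0451. On the adjusted p alone these were the only calls against 0 h among the 5 members and SPRED3 that it changed. The causes of these shifts were not tested. Depth limits SPRY4 at 0 h (12 reads) and SPRY2 (89 to 145 reads per library).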
